A study of Mus musculus with 4 samples.

Results

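The 10 genes described here encode the core of Notch signalling between neighbouring cells. They are the receptors Notch1, Notch2, Notch3 and Notch4, the ligands Jag1, Jag2 and Dll4, and the target genes Hes1, Hes5 and Hey1. They were taken by symbol from a table of raw counts for 24421 genes in 4 RNA-seq libraries from whole embryos of ICR mice, and all 10 were found. Wild-type embryos were sequenced at embryonic day 7.5 (E7.5 WT, 1 library) and at embryonic day 8.5 (E8.5 WT, 1 library), and Ddx6 knockout embryos at the later day in 2 libraries, KO1 and KO2. Values given in library order follow this sequence, from the younger wild type through the older one and KO1 to KO2. Ddx6 encodes an RNA helicase of processing bodies that acts in translational repression and mRNA decay, including silencing by microRNAs. In the knockout line exon 5 of Ddx6, flanked by loxP sites, had been removed with a broadly active CAG-Cre transgene, and homozygous embryos came from crosses of heterozygotes. KO1 pooled 1 embryo from before head-fold formation with 1 that had a head-fold, whereas KO2 pooled 3 embryos from before head-fold formation, so the KO libraries differed in stage as well as in replicate number.

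In the Notch pathway a transmembrane ligand of the Jagged or Delta-like family on one cell binds a receptor on its neighbour, and the receptor is cut by an ADAM protease and then by gamma-secretase. The freed intracellular part enters the nucleus, joins the DNA-binding protein RBPJ and a Mastermind coactivator, and switches on Hes and Hey genes, whose products are transcriptional repressors. In the early embryo the pathway is known for arterial specification of endothelium, for the segmentation of somites and for holding neural progenitors undifferentiated.

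In the GRCm38 assembly the receptor genes lie at chr2:26457903-26516663 (Notch1, minus strand), chr3:98013527-98150361 (Notch2, plus), chr17:32120820-32166852 (Notch3, minus) and chr17:34564268-34588503 (Notch4, plus). The ligand genes lie at chr2:137081456-137116644 (Jag1, minus), chr12:112907819-112929776 (Jag2, minus) and chr2:119325784-119335962 (Dll4, plus). The targets lie at chr16:30064384-30067796 (Hes1, plus), chr4:154960923-154962371 (Hes5, plus) and chr3:8663359-8667256 (Hey1, minus).

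The regulatory sequences closest to these genes are shown first, with the words that RBPJ and the Hes repressors are known to recognise. Promoter windows from 250 bases before to 50 bases after the start site were present in RefSeq (GRCm38.p6) for 8 of the 10 genes, Hes1 and Hey1 being without an entry. The windows were searched on both strands for TGGGAA, the core of the RBPJ site, and for CACGCG, a site bound by Hes repressors, and matches are in capitals. The words do not overlap each other. The Hes5 window lies at chr4:154960673-154960972 on the plus strand, the Dll4 window at chr2:119325534-119325833 on the plus strand, the Jag1 window at chr2:137116471-137116770 on the minus strand and the Jag2 window at chr12:112929446-112929745 on the minus strand. Hes5 is shown as the target gene and the 3 ligands because they differed most between the wild-type stages.
Hes5: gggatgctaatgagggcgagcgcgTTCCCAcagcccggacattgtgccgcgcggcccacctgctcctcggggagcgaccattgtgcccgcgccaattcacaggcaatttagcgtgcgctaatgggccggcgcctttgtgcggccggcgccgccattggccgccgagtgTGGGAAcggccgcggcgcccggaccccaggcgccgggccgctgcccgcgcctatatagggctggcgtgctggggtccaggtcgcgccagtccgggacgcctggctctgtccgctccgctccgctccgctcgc
Dll4: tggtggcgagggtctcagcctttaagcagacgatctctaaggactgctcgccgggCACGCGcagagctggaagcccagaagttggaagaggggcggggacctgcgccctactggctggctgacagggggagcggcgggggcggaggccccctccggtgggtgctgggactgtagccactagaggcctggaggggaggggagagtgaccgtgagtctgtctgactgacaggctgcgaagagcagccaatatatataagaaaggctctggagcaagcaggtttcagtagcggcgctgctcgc
Jag1: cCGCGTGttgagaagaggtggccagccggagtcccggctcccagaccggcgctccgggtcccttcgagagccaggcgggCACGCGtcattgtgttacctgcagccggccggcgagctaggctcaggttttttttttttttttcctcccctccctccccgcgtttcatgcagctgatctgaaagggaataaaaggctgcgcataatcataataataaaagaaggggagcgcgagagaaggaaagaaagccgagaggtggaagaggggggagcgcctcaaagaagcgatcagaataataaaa
Jag2: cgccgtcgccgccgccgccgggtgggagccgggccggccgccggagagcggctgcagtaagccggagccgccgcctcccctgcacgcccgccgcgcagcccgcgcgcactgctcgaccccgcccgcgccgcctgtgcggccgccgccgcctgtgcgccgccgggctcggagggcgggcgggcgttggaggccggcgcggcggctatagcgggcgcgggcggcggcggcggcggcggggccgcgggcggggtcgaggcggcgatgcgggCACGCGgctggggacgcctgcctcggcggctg

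The RBPJ core was found in the window of Hes5 alone among the 8, at 226 and 82 bases before the start site, in opposite orientations. In the whole table of 32851 promoter windows, 25.6% held the word. The Hes site was found in 4 of the 8 windows, those of Dll4, Jag1, Jag2 and Notch2, with 2 matches in Jag1, whereas 9.27% of all windows held it. The Jag2 match lay 18 bases after the start site. These shares do not allow for the base composition of the windows. A match to 6 letters is a description of the sequence and not a site of binding.

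Because DDX6 acts with microRNAs, the 3′ untranslated regions (UTRs) of the 10 genes were searched for the complements of 2 seeds. One is the seed shared by miR-302b and miR-294, microRNAs abundant in pluripotent cells, and the other is that of miR-34a, for which Notch1 and Jag1 are textbook targets. The mature sequences, from RefSeq (GRCm38.p6), are printed with the seed in capitals, and the matched letters in the genes are AGCACTT for the first pair and CACTGCC for miR-34a.
mmu-miR-302b-3p: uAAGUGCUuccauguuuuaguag
mmu-miR-294-3p: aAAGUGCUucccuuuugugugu
mmu-miR-34a-5p: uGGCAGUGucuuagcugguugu

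No 3′ UTR of the 10 genes held AGCACTT, a word found in 17.3% of the 13418 measured genes with an annotated 3′ UTR (GENCODE, GRCm38, longest per gene). CACTGCC was found in 3 of the 10 genes, against 17.5% of the measured genes, with 3 matches in Notch1, 2 in Notch2 and 1 in Jag1. These shares do not allow for UTR length. The median length was 2291 bases in measured genes with CACTGCC and 1009 in those without, and 2574 and 986 for AGCACTT. Notch2 (2917 bases), Notch1 (1628) and Jag1 (1568) had the longest 3′ UTRs of the 10. The sites are shown with the complement of the seed in capitals. They lie at chr2:26459327-26459355, chr2:26459056-26459084 and chr2:26458714-26458742 on the minus strand in Notch1, at chr3:98149406-98149434 and chr3:98149594-98149622 on the plus strand in Notch2, and at chr2:137081660-137081688 on the minus strand in Jag1.
Notch1, first site: ttccacagaaaCACTGCCtttttatttat
Notch1, second site: tcccccacactCACTGCCcctccccccag
Notch1, last site: cctagagaaaaCACTGCCtggactgttct
Notch2, first site: agctctagtgcCACTGCCtgcgaacagta
Notch2, last site: gaagaagacaaCACTGCCagtcatacatc
Jag1, site: gccgtagagtaCACTGCCtgccttaagtg

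Total counts were between 8198402 in KO1 and 12562640 in E8.5 WT, and the 14393 genes that reached 10 counts in any library entered the comparisons. All 10 Notch genes passed this minimum, Hes5 and Dll4 through the libraries in which they were high. Ddx6 had 2943, 5715, 706 and 929 reads in library order, a mean log2 change against E8.5 WT of -2.53 ± 0.10 (SD, n = 2). Counts per gene do not separate the deleted exon from the rest of the transcript. Levels are given as CPM, reads scaled to a common library total, and corrected by TMM, a trimmed mean of log ratios between libraries, and comparisons between genes as CPM per kilobase of merged exons. A gene was called changed when its log2 change, computed with a prior count of 2, was above 1 or below -1 in both KO libraries, which is the threshold of the study's methods. Each wild-type stage had 1 library, so a difference between the stages has no replicate check, and 95% intervals in the text are counting intervals (Clopper-Pearson) that leave out biological spread.

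KO2 stood apart in markers of trophoblast and of uterine natural killer cells. Markers of trophoblast giant cells and ectoplacental cone summed to 869 CPM in KO2 and to at most 454 CPM in the other libraries. Prl3d1, a hormone gene of trophoblast giant cells, had 4156 reads in KO2 and at most 27 in any other library, while Prl3b1 and Tpbpa were at 0 in all 4. The decidual list summed to 138, 22.1, 30.2 and 143 CPM in library order, and the list of uterine natural killer cells to 1.43, 0.162, 1.91 and 13.1 CPM. Genes of the primitive streak and epiblast summed to 821, 155, 253 and 925 CPM, and 3 of 7 were higher than E8.5 WT in both KO libraries. Visceral endoderm genes summed to 6886, 7162, 4300 and 4084 CPM, and 2 of 8 were lower in both KO libraries. The part of these tissues in the results below was not tested, and the values of the 10 genes are therefore given for KO1 and KO2 separately. In bulk libraries fewer cells of a type and less RNA per cell cannot be told apart.

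**Figure D1:**
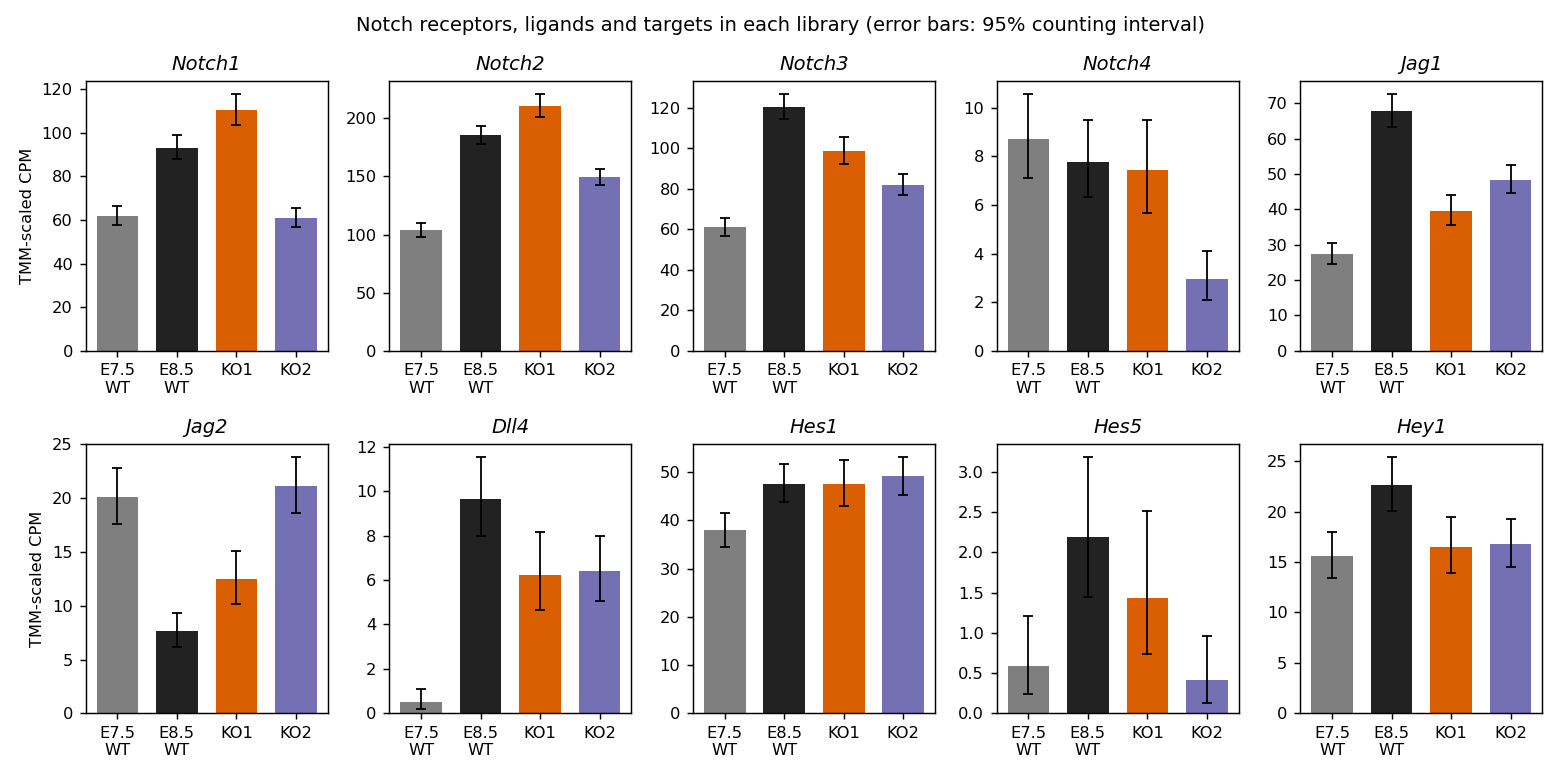
TMM-scaled CPM (vertical axes, starting at 0) of the 10 genes in the 4 libraries, 1 panel per gene, with 95% exact Poisson counting intervals as error bars. Dll4 is near 0 in E7.5 WT (0.503 CPM) and lower in both KO libraries (6.22 and 6.40 CPM) than in E8.5 WT (9.65 CPM), and Jag2 has the opposite order of the wild-type stages.

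The first comparison asked how the pathway differed between the wild-type stages. Dll4, Jag1 and Hes5 were above the threshold in E8.5 WT and Jag2 was below it. Of all genes 12.2% were higher by this rule and 7.82% lower, against 3 and 1 of the 10 Notch genes.

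Dll4, a Delta-like ligand of arterial endothelium, had 6 reads at the younger stage and 119 at the older. This was 0.503 and 9.65 CPM, a 19.2-fold difference (95% interval 8.55 to 53.3). The wide interval comes from the 6 reads at E7.5. Jag1, the Jagged ligand of many epithelia and vessels, had 326 and 837 reads and was 2.48-fold higher in E8.5 WT (2.18 to 2.83). Jag2, its paralog, went the other way, with 239 and 94 reads, 2.63-fold lower in E8.5 WT (2.06 to 3.38).

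Among the receptors, Notch1, Notch2 and Notch3 were 1.5-fold (1.37 to 1.65), 1.79-fold (1.67 to 1.92) and 1.97-fold (1.80 to 2.16) higher in E8.5 WT, each below the threshold. Notch4, the receptor known from endothelium, had 104 and 96 reads, and its interval of 0.669 to 1.19 included no difference. Among the targets Hes5 had 7 and 27 reads, a 3.73-fold difference (1.58 to 10.1) on few reads. Hey1 and Hes1 were 1.45-fold (1.20 to 1.76) and 1.26-fold (1.11 to 1.42) higher. In all, the counting interval lay above no difference for 8 of the 10 genes, below it for 1 and across it for 1. The matching share of all genes was not computed, so this tally cannot be set against other genes. With 1 library per stage it reflects counting error and read depth only.

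The endothelial markers differed between the stages as well. Of 16 endothelial genes 11 were above the threshold in E8.5 WT and none below, and their summed level was 253 CPM at the younger stage and 612 CPM at the older. The median log2 difference of the endothelial list was 1.79, that of the 10 Notch genes 0.71 and that of all genes -0.02.

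Compared per kilobase, the receptors kept 1 order in all 4 libraries, with Notch2 first, then Notch3, Notch1 and Notch4. The counting intervals separated every pair of neighbours at the lengths used. Here and below, merged exon lengths came from GENCODE, with 14.2 kb for Notch1, whereas the study counted reads on a UCSC annotation. The intervals carry no error of length, so orders per kilobase hold for these lengths only. In E8.5 WT the levels were 17.2, 14.9, 6.55 and 0.966 CPM per kilobase. The closest pair was Notch2 and Notch3 in E8.5 WT, with a ratio per length of 1.15 (1.08 to 1.23). The ratio of Notch1 to Notch4 was 4.02, 6.79, 8.44 and 11.7 in library order.

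The targets likewise kept the order Hes1, Hey1 and Hes5. In library order Hes1 was at 18.6, 23.4, 23.4 and 24.1 CPM per kilobase, Hey1 at 4.78, 6.93, 5.06 and 5.13, and Hes5 at 0.431, 1.61, 1.05 and 0.301. The ratio of Hey1 to Hes5 was 4.31 in E8.5 WT (2.90 to 6.66) and 17.0 in KO2 (7.18 to 53.0).

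The ligands did not keep their order. Set beside Dll1 and Dll3, the other Delta-like ligands, Jag1 was first in E8.5 WT with 38.6% of the summed ligand reads per kilobase, and Dll3 was first at 49.9% in the younger wild type and at 43.8% in KO2. In KO1 Dll1 (34.1%), Dll3 (28.8%) and Jag1 (24.7%) followed each other with ratios whose counting intervals included 1, and so did Jag2 (6.49%) and Dll4 (5.87%). Dll4 took 0.355%, 8.30%, 5.87% and 5.30% in library order.

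The second comparison asked which Notch genes differed between the KO embryos and wild type of the same day. None of the 10 was above or below the threshold in both KO libraries, where 3.48% of all genes were higher and 1.74% lower. In KO1 alone 0 of the 10 passed the threshold, against 8.25% of all genes in either direction. In KO2 alone 3 of the 10 did, Jag2 higher and Notch4 and Hes5 lower, against 15.4% of all genes.

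**Figure D2:**
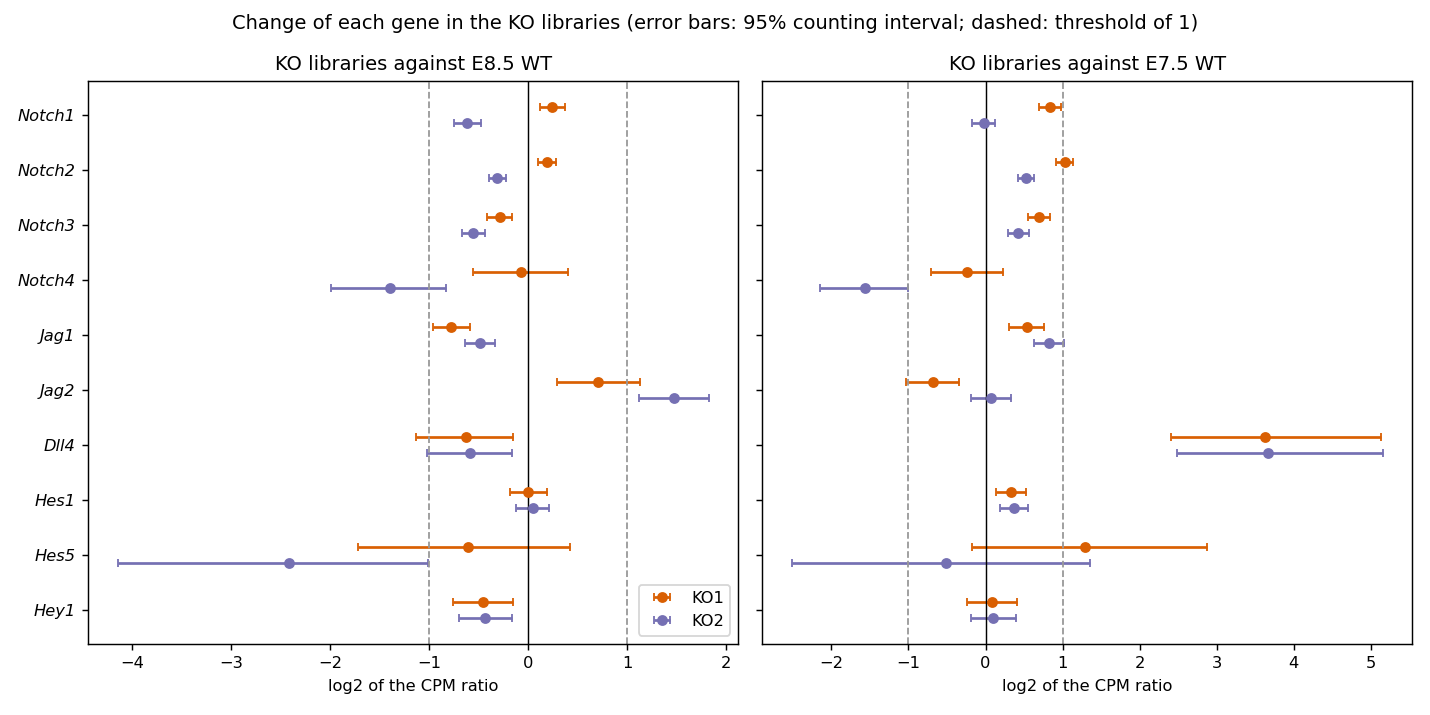
Log2 of the CPM ratio, without a prior count, of KO1 and KO2 to E8.5 WT (left) and to E7.5 WT (right) for the 10 genes, with 95% counting intervals as bars and the threshold of 1 dashed. On the left no gene has both points beyond a dashed line, and on the right Dll4 alone has.

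Among the ligands both KO libraries lay on the same side of E8.5 WT for each gene, below it for Jag1 and Dll4 and above it for Jag2. From E8.5 WT to KO2 Jag1 had 837, 331 and 589 reads, which was 67.9, 39.6 and 48.4 CPM. Both KO libraries lay below E8.5 WT and above the 27.3 CPM of E7.5 WT. The log2 changes against E8.5 WT were -0.77 and -0.49, with a mean of -0.63 ± 0.20 (SD, n = 2). In edgeR's quasi-likelihood test, in which the spread came from the KO libraries, the unadjusted p was 0.0302 and the p adjusted over all genes was 0.663. An unadjusted p under 0.05 was reached by 1 of the 10 genes, this one, and by 7.36% of all genes.

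Jag2 had 94, 104 and 257 reads in the same libraries, or 7.62, 12.4 and 21.1 CPM. Both KO libraries were higher, KO1 by 1.63-fold (1.22 to 2.18) and KO2 by 2.77-fold (2.18 to 3.54), and KO2 lay near the 20.1 CPM of E7.5 WT. The mean log2 change was 1.07 ± 0.53 (SD, n = 2), with edgeR p-values of 0.0585 unadjusted and 0.663 adjusted. The value of KO1, 0.69, was under the threshold.

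Dll4 had 119, 52 and 78 reads, or 9.65, 6.22 and 6.40 CPM. The KO libraries differed little from each other, KO2 being 1.03-fold KO1 (0.716 to 1.49), and both were lower than E8.5 WT, by 1.55-fold (1.11 to 2.19) and 1.51-fold (1.12 to 2.03). The mean log2 change was -0.60 ± 0.03 (SD, n = 2) with an edgeR adjusted p of 0.687.

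The endothelial markers differed among themselves in how alike the KO libraries were. Of the 16 endothelial genes 0 were lower than E8.5 WT by the threshold in KO1 and 7 in KO2. The receptor tyrosine kinase genes Tek and Tie1 had 629 and 304 reads in the older wild type. They had 590 and 136 in KO1 but 112 and 21 in KO2. Scaled for library size, the log2 changes of Tek and Tie1 were 0.47 and -0.59 in KO1 and -2.45 and -3.71 in KO2. Cdh5, which encodes VE-cadherin, had 689, 343 and 1202 in the same order. Etv2, an early regulator of the lineage, had log2 changes of -0.56 and -0.73. In KO2 Cdh5, Esam and Sox17 were above E8.5 WT, by 0.82, 0.55 and 0.90 on the log2 scale. The paper counts Sox17 among its markers of definitive endoderm, so its reads need not come from endothelium. The list summed to 599 CPM in KO1 and 432 CPM in KO2. Of the arterial list, Gja5, a connexin gene, had 23, 2 and 7 reads and was lower in both KO libraries, while the list summed to 439, 639 and 448 CPM. The part of endothelial content in the Dll4 values was not tested.

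The receptors were mixed. Notch1 had 1150, 924 and 742 reads from E8.5 WT to KO2, or 93.3, 111 and 60.9 CPM. KO1 was 1.19-fold higher (1.09 to 1.29) and KO2 1.53-fold lower (1.39 to 1.68), so that the KO libraries lay on opposite sides of E8.5 WT. Notch2 had the same arrangement at 185, 211 and 149 CPM, with log2 changes of 0.19 and -0.31. Notch3 was lower in both KO libraries, at 121, 98.7 and 82.0 CPM, a mean log2 change of -0.42 ± 0.19 (SD, n = 2) with edgeR p-values of 0.0705 unadjusted and 0.663 adjusted.

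Notch4 had 96, 62 and 36 reads in these 3 libraries, or 7.79, 7.42 and 2.96 CPM. KO1 did not differ from E8.5 WT beyond counting error (ratio 0.953, 0.681 to 1.32), and KO2 was 2.63-fold lower (1.78 to 3.98). Notch4 was below the threshold in KO2 and not in KO1, as were 7 of the 16 endothelial markers and not the other 9, and the edgeR adjusted p over both KO libraries was 0.790. The genes with words for miR-34a, Notch1, Notch2 and Jag1, had log2 changes of 0.24, 0.19 and -0.77 in KO1 and of -0.61, -0.31 and -0.49 in KO2. The receptors without the word, Notch3 and Notch4, had changes of -0.29 and -0.07 in KO1 and of -0.55 and -1.35 in KO2. Of the other genes without it, Jag2 had 0.69 and 1.45 in KO1 and KO2, and Dll4 -0.62 and -0.58. Hes1 had 0.0002 and 0.04, Hes5 -0.55 and -2.01, and Hey1 -0.45 and -0.43. Over all genes with a 3′ UTR the median was 0.03 with the word and 0.00 without it in KO1, and 0.00 and 0.01 in KO2.

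The targets did not move together. Hes1, the most abundant of them per kilobase, had 587, 398 and 598 reads from E8.5 WT to KO2, or 47.6, 47.6 and 49.1 CPM, with a mean log2 change of 0.02 ± 0.03 (SD, n = 2). The counting intervals were 0.878 to 1.14 in KO1 and 0.919 to 1.16 in KO2, so neither interval reached beyond a ratio of 1.16. Hey1 had 279, 138 and 204 reads, or 22.6, 16.5 and 16.8 CPM. It was lower in both KO libraries with a mean log2 change of -0.44 ± 0.01 (SD, n = 2), near its level in E7.5 WT (15.6 CPM), and the edgeR adjusted p was 0.666.

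Hes5, a target gene of neural progenitors, had 27, 12 and 5 reads, or 2.19, 1.44 and 0.411 CPM. KO1 did not differ from E8.5 WT beyond counting error (ratio 0.656, 0.303 to 1.34), and KO2 was 5.33-fold lower (2.02 to 17.7). The edgeR adjusted p was 0.705. The 8 measured neural progenitor genes had a median log2 change of -2.39 in KO2 and -0.78 in KO1, and 6 of them were below the threshold in KO2. Members of the list also went the other way, with Nes at 0.39 in KO1 and 0.83 in KO2, Fabp7 and Hoxb1 at 0.96 and 0.52 in KO1, and Sox2 at -0.15 in KO2. The list summed to 195, 348, 281 and 240 CPM in library order. Sox1, Pax6 and Olig3 were below the threshold in both KO libraries. Sox1, the early neural plate gene, had 533, 178 and 42 reads from E8.5 WT to KO2. The part of neural tissue content in the Hes5 values was not tested.

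Over the 10 genes the median log2 change from E8.5 WT was -0.18 for KO1 and -0.52 for KO2, beside 0.00 in both for all genes. The adjusted p in edgeR was between 0.663 and 0.973 for the 10 genes, and 0 of all genes had an adjusted p under 0.05. DESeq2 called 31 genes in this contrast and none of the 10. It gave no adjusted p for 2512 of the 14393 genes, Hes5 among them.

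Between the KO libraries themselves, Notch4 and Hes5 differed by more than the threshold, both lower in KO2, against 10.9% of all genes. Notch4 was 2.51-fold lower in KO2 (1.64 to 3.90) and Hes5 3.50-fold lower (1.15 to 12.7). Notch1 and Jag2 differed by less, 1.81-fold lower (1.65 to 2.0) and 1.70-fold higher (1.35 to 2.15) in KO2. Dll4, Hes1 and Hey1 did not differ between the KO libraries beyond counting error.

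The third comparison set the KO libraries beside the earlier wild-type stage, which shares its KO libraries with the comparison above. Dll4 was the single Notch gene past the threshold, with log2 changes of 3.23 in KO1 and 3.27 in KO2, where 7.02% of all genes were higher in both KO libraries and 2.67% lower. Endothelial markers were higher here too, 5 of 16 in both KO libraries (Pecam1, Cdh5, Flt4, Sox18 and Esam) and 0 lower, as was Nrp1 of the arterial list, at 3.37 and 2.20. Their part in the Dll4 values was not tested. The CPM ratio was 12.4 (5.31 to 35.2) in KO1 and 12.7 (5.59 to 35.7) in KO2. The edgeR adjusted p of Dll4 was 0.120 and that of DESeq2 was 0.0312, so the call by a p depended on the tool. Without a filter on low counts the edgeR adjusted p was 0.0338. With DESeq2 size factors or a minimum of 50 counts the edgeR adjusted p was 0.115 and 0.118. DESeq2 called 5.01% of all genes and gave no adjusted p for 2791 of the 14393, Hes5 among them.

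Unadjusted edgeR p-values under 0.05 were reached by 4 of the 10 genes, all higher in the KO libraries, beside 24.6% of all genes. These were Dll4, Jag1, Notch2 and Notch3, and their adjusted p-values in edgeR were 0.120, 0.163, 0.173 and 0.174. Notch2 was at 104 CPM in E7.5 WT and higher in both KO libraries, with log2 changes of 1.02 and 0.53. Jag2 was 1.61-fold lower in KO1 (1.27 to 2.05), and KO2 did not differ from E7.5 WT beyond counting error (ratio 1.05, 0.879 to 1.26).

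By the smaller of the log2 distances, KO1 was nearer to E8.5 WT for 7 of the 10 genes and nearer to E7.5 WT for 3, namely Jag1, Jag2 and Hey1. KO2 was nearer to each stage for 5. By counting intervals, Notch1 and Notch2 were above both wild-type stages in KO1 and Notch4 was below both in KO2. No other gene of the 10 lay outside both stages beyond counting error. The shares of all genes by these rules were not computed, so the tallies describe the 10 genes only.

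The opposite course of the Jagged ligands can be read from 1 quantity that does not depend on the scaling of the libraries, the share of Jag1 in the reads of Jag1 and Jag2 together. This quantity was chosen after the values of both genes were seen. The share was 57.7% at the younger wild-type stage (53.5% to 61.8%, of 565 reads) and 89.9% at the older (87.8% to 91.8%, of 931). It was 76.1% in KO1 (71.8% to 80.0%, of 435) and 69.6% in KO2 (66.4% to 72.7%, of 846). Both KO libraries lay between the wild-type stages, with intervals that overlapped neither of them and that overlapped each other. The ratio of Jag1 to Jag2 reads was 1.36, 8.90, 3.18 and 2.29 in library order. The sums of the streak and epiblast genes and of the decidual genes, given above, had the same library order as Jag2 in CPM. The older wild type was lowest, then KO1, the younger wild type and KO2. Jag2 itself did not differ between E7.5 WT and KO2 beyond counting error. Of the streak genes, Eomes, Pou5f1 and Fgf5 had this order. T was lower in KO2 than in E7.5 WT (log2 change -1.41) and Mixl1 lower in KO1 than in E8.5 WT (-0.24). Nodal and Nanog in KO1 were not lower than E7.5 WT (0.07 and 0.02). Of the 5 measured decidual genes, Prl8a2 alone had this order. Hoxa11 and Angpt4 were lower in KO1 than in E8.5 WT (log2 changes of -2.26 and -0.33). Cryab was lower in KO2 than in E7.5 WT (-0.74), and Pgr in KO1 was not lower than E7.5 WT (0.08). The part of these tissues in the Jag2 values was not tested.

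**Figure D3:**
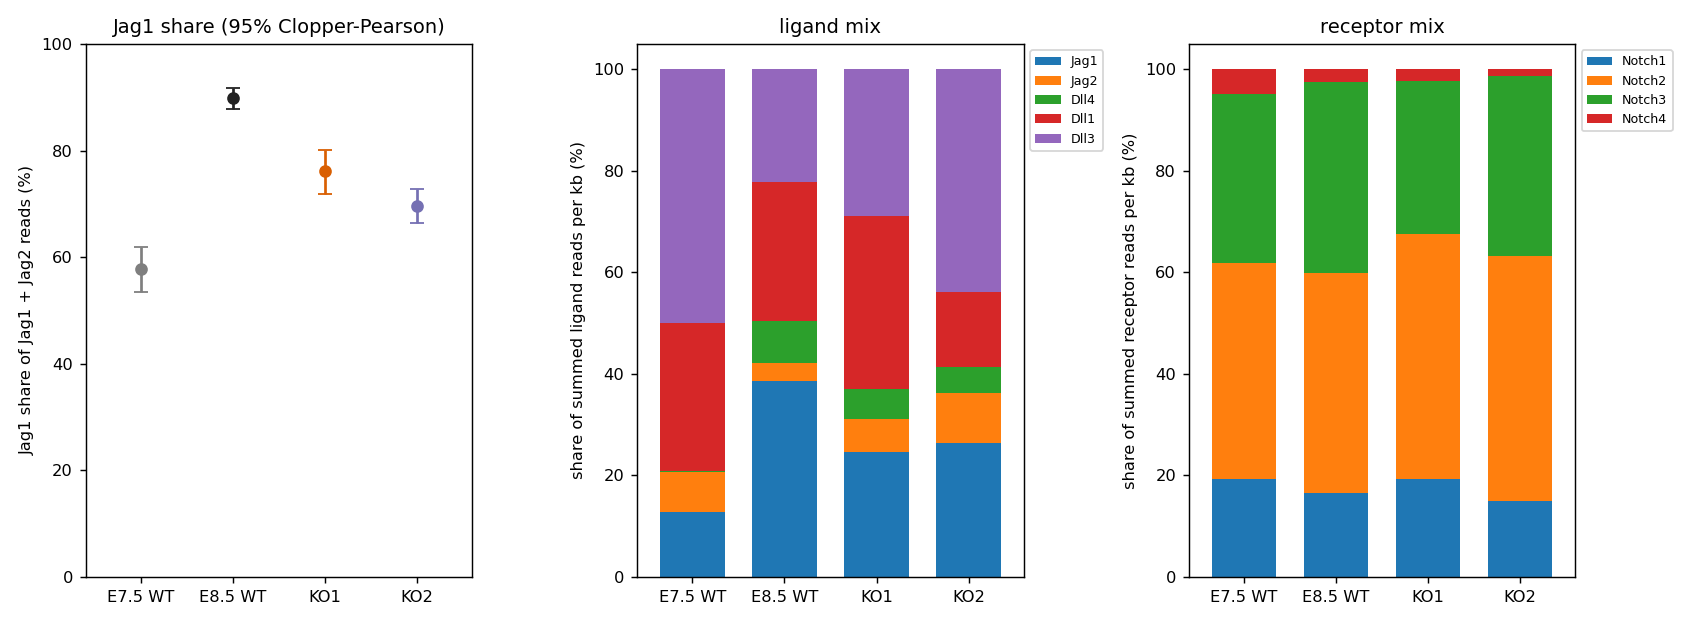
Left, the Jag1 share of Jag1 plus Jag2 reads in percent, with 95% Clopper-Pearson intervals, centre and right, the shares of each ligand and receptor in the summed reads per kilobase (percent, stacked to 100). The Jag1 share is 89.9% in E8.5 WT and 76.1% and 69.6% in KO1 and KO2, while the receptor mix keeps 1 order in the 4 libraries.

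The remaining pathway was described from 8 lists of 71 genes, compiled by step, of which 68 were measured. Of these 68 genes 1 was higher and 1 lower than E8.5 WT in both KO libraries, where the shares of all genes were 3.48% and 1.74%. Of the 68, 0 had an adjusted p under 0.05 in edgeR or DESeq2, and 4 had an unadjusted edgeR p under 0.05, beside 7.36% of all genes. These 4 were Furin (log2 changes of 0.75 and 0.67 in KO1 and KO2), Aes (0.81 and 0.93), Epn1 (-0.59 and -0.55) and Neurl1b. The median log2 changes of the 68 genes were 0.09 (KO1) and 0.01 (KO2). Against E7.5 WT 4 were higher in both KO libraries and 0 lower, beside 7.02% and 2.67% of all genes. In that contrast 3 of the 68 had a DESeq2 adjusted p under 0.05, Mib1, Epn1 and Adam10, beside 5.01% of all genes. In edgeR 0 had. DESeq2 gave no adjusted p for Dner, Aph1c, Gxylt2 and Heyl in either contrast, nor for Neurl1b against E7.5 WT.

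The gene higher than E8.5 WT was Neurl1b, which encodes a ubiquitin ligase of the Neuralized family that promotes ligand endocytosis. It had 21, 20, 43 and 59 reads in library order, and both KO libraries were higher than both wild-type libraries. The ratio to E8.5 WT was 3.17 in KO1 (1.83 to 5.69) and 2.99 in KO2 (1.77 to 5.24), with a mean log2 change of 1.52 ± 0.06 (SD, n = 2) and edgeR p-values of 0.0416 unadjusted and 0.663 adjusted. Mib1, the ubiquitin ligase that is the main activator of Notch ligands, had 328, 1035, 657 and 941 reads. It stood with E8.5 WT, at log2 changes of -0.09 and -0.12, and was higher than E7.5 WT by 1.51 and 1.48 on the log2 scale (DESeq2 adjusted p = 0.000772, edgeR adjusted p = 0.120). The other genes of this step, Mib2, Neurl1a, Epn1 and Epn2, were under the threshold in both KO libraries.

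The gene lower than E8.5 WT was Hes3, a Hes repressor gene of the neural tube, with edgeR p-values of 0.285 unadjusted and 0.728 adjusted. It had 1, 306, 79 and 0 reads in library order, which was 2.63-fold lower in KO1 (2.04 to 3.41) and at least 101-fold lower in KO2, against a floor of 3 reads in that library. Hes7, the oscillating repressor of the presomitic mesoderm, had 86, 126, 101 and 12 reads and was 10.4-fold lower in KO2 (5.73 to 20.6), while KO1 did not differ from E8.5 WT beyond counting error. Hey2, a repressor of heart and arteries, had 39, 148, 74 and 55 reads. Heyl had 2, 11, 7 and 2 reads, and Hes6 282, 170, 157 and 304. Scaled for library size, Hes6 had log2 changes against E8.5 WT of 0.44 in KO1 and 0.85 in KO2. Of the 5 measured Hes and Hey genes outside the core set, 4 were below the threshold in KO2, beside 5.9% of all genes, and 1 in KO1, beside 3.18%. The presomitic and somite markers that accompany Hes7 summed to 98.0, 217, 245 and 84.4 CPM, and 6 of 10 were lower in KO2 by the threshold, 2 of them in both KO libraries. A further 2 were higher in KO2, Mesp1 (52 reads in E8.5 WT and 741 in KO2) and Mesp2 (11 and 72 reads).

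**Figure D4:**
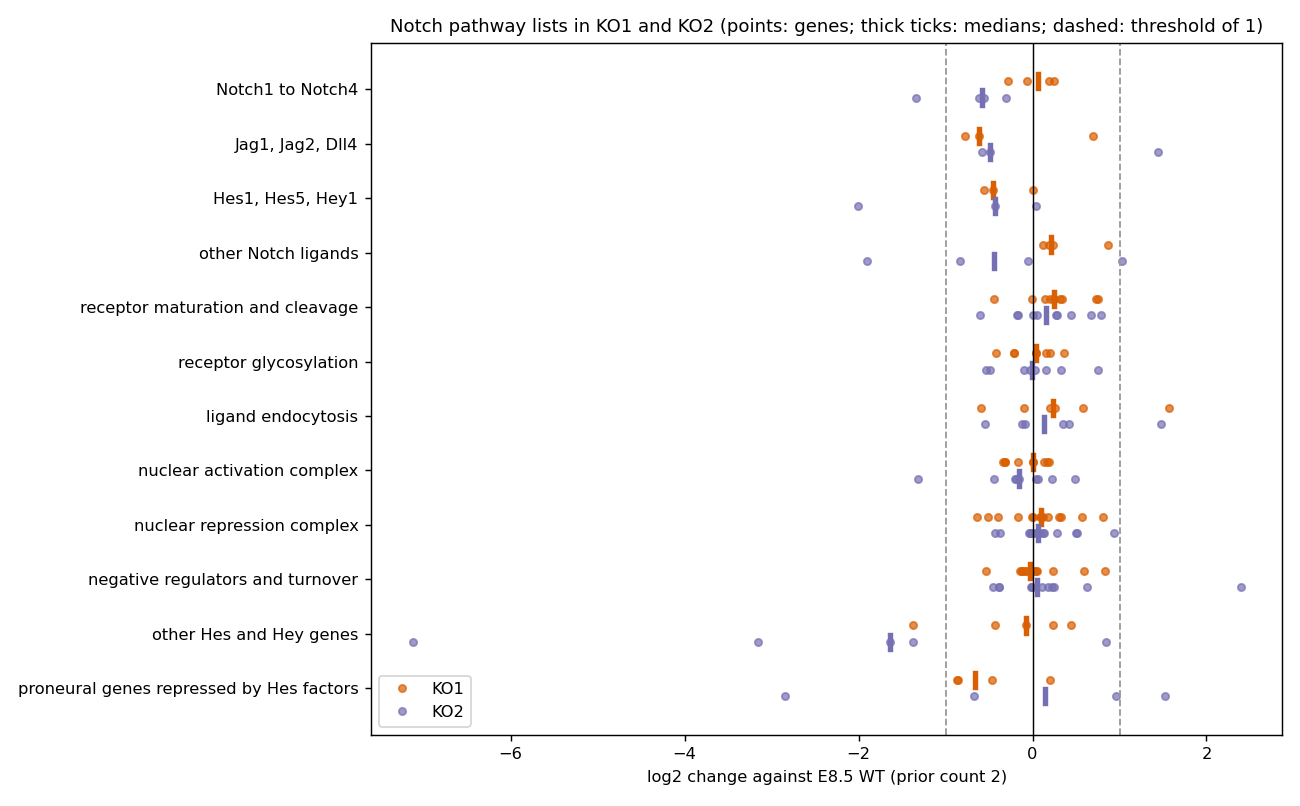
Log2 change against E8.5 WT (horizontal axis, prior count 2) of each measured gene of the pathway lists, in KO1 and KO2, with list medians as thick ticks and the threshold of 1 dashed. Most genes lie within the dashed lines, and the other Hes and Hey genes spread to the left in KO2.

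Among the other ligands Dll1, the ligand of somites and neural progenitors, had 539, 428, 331 and 237 reads in library order, and its log2 changes against E8.5 WT were 0.19 and -0.83. Dll3, a cell-autonomous inhibitor of the pathway, had 624, 236, 189 and 477 reads, with changes of 0.24 and 1.03. KO2 was thus lower for Dll1 and higher for Dll3. Dlk1, a non-canonical ligand, had 1010, 2416, 1787 and 638 reads and was 3.74-fold lower in KO2 (3.43 to 4.09). Its log2 change in KO1 was 0.13. Dner had between 11 and 26 reads and Dlk2 at most 9.

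RBPJ is the DNA-binding partner of all 4 receptors, and Rbpj had 643, 790, 422 and 684 reads, with log2 changes against E8.5 WT of -0.34 and -0.19 and an edgeR adjusted p of 0.679. No gene of the lists for receptor maturation and cleavage (10 genes), receptor glycosylation (8), nuclear activation (9), nuclear repression (14) or negative regulation and turnover (12) passed the threshold in both KO libraries against E8.5 WT. Their median log2 changes were between -0.03 and 0.25 in KO1 and between -0.15 and 0.16 in KO2. Against E7.5 WT, Maml3, a Mastermind coactivator, and Tle2, a Groucho corepressor, were higher in both, with log2 changes of 1.26 and 1.12 for Maml3 and of 1.09 and 1.03 for Tle2 in KO1 and KO2.

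A list of 9 proneural and neuronal differentiation genes is labelled in the figure as proneural genes repressed by Hes factors. Of these 9 genes, 4 were measured and 0 were called against E8.5 WT. Ebf2 had 4, 79, 29 and 9 reads and Insm1 74, 26, 9 and 78. Neurog1 had 31 reads in E7.5 WT and between 1 and 4 in the other libraries, lower in both KO libraries than in E7.5 WT.

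Finally, the genes with the most similar course over the 4 libraries were sought for the 3 Notch genes with the widest range of log2 CPM, which were Dll4 (3.85), Hes5 (2.01) and Notch4 (1.51). Likeness was the Euclidean distance of centred log2 CPM among genes averaging 50 or more counts, so it rests on 4 points that share the libraries. For Dll4 the closest were Hecw2 (distance 0.71), Flrt2 (0.76) and Eya1 (0.81), with 11 of 11221 genes within a distance of 1. For Hes5 they were Cd109 (0.14), Rasl10b (0.17) and Col1a2 (0.24), with 301 genes within 1, and for Notch4 Id2 (0.21), Pdlim4 (0.28) and Ddit4 (0.29), with 713.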

How the data were processed

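Whole-embryo mRNA was sequenced from 4 libraries prepared with a stranded kit. The authors deposited raw counts per gene without normalization. Per the submitters' processing notes and the study's methods, reads were trimmed with Cutadapt 2.8, checked with FastQC 0.11.7, aligned to mm10 with HISAT2 2.1.0, handled with SAMtools 1.9 and counted over exons by strand with featureCounts 2.0.0. Totals were 8198402 to 12562640.

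Genes with at least 10 counts in 1 library (14393 of 24421) were kept, and TMM factors, CPM and log2 CPM (prior count 2) were computed in edgeR 4.0.16. Calls required a log2 change beyond 1 in both KO libraries. Two-sided quasi-likelihood tests over 3 groups, with Benjamini-Hochberg adjustment over all genes, took their spread from the KO libraries alone. DESeq2 1.42.0 was the alternative. Where nothing states that libraries came from separate litters, p-values measure only the spread between these libraries. PCR reads carry no molecular identifiers here, so intervals and the floor of 3 counts describe counting error alone.

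The 10 genes, the pathway and marker lists and the tests were chosen with earlier results of these data known. Named genes are the 10, Ddx6, Rbpj, Dll1, Dll3, pathway genes called against E8.5 WT or against both stages, members of lists of at most 5 genes, and the 3 most alike genes for the 3 with the widest range. Exceptions, picked once values had been seen, are Mib1, Mib2, Neurl1a, Epn1, Epn2, Furin, Adam10, Aes, Maml3, Tle2, Ebf2, Insm1 and Neurog1. The other Hes and Hey genes and the markers named are exceptions as well. Exon lengths and 3′ UTRs came from GENCODE vM21 (GRCm38, the assembly of mm10), and Tle5 was matched as Aes. The tests were run first on simulated data.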

Additional observations from a re-analysis of the deposited data

How the results depend on the processing

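No Notch gene was called in both KO libraries against E8.5 WT under DESeq2 size factors, plain library totals, no filter, a minimum of 50 counts, a prior count of 0.5, a threshold of 2, or adjusted p-values of edgeR or DESeq2. Leaving out a KO library gave 0 (KO1 alone) to 3 (KO2 alone) calls. Against E7.5 WT the 1 call (Dll4) became 2 with KO2 alone (Dll4 and Notch4), 3 with KO1 alone (Dll4, Notch2 and Hes5) and 0 by the edgeR adjusted p. Dll4 gained a call in DESeq2 (adjusted p = 0.0312) and in edgeR without a filter (0.0338), a setting in which 728 genes were called against 0 with the filter. Between the KO libraries the 2 calls became 1 at a minimum of 50 counts, which removes Hes5. For the other pathway genes, under alternatives chosen after seeing the data, the 2 calls became 0 at a threshold of 2 and by either adjusted p, and 2 to 9 when a KO library was left out, 9 with KO2 alone. The other 31 counts stayed within 1.5 times the main count. Of the values for single genes, 308 stayed on their side of the threshold or within their spread, 12 moved by more than it and 2 passed the threshold. No direction of a called gene reversed. Below about 30 reads, as for Hes5, depth limits what can be told. No paired analysis was possible because the wild-type libraries carry no replicate numbers shared with the KO libraries.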
